A study of Mus musculus with 16 samples.

Results

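C-type lectin receptors are surface proteins that carry the C-type lectin-like domain, a fold that in many of them binds sugars in the presence of calcium. They are described here by transcript level in mouse bone marrow-derived macrophages. Members were the protein-coding genes of the GENCODE M21 annotation whose symbol starts with Clec or Cd209, together with Mrc1, Mrc2, Mgl2, Pla2r1, Ly75, Cd69, Cd302 and Klrk1. The rule gave 45 genes, 37 by symbol and 8 by name, of 21995 protein-coding genes with a row in the count tables. No measured value entered it. Clec7a, which encodes Dectin-1, is typed as a polymorphic pseudogene in that annotation and lies outside the rule, so it is given separately. Clec16a shares the symbol but encodes an intracellular protein of endosome and mitochondrial turnover that is not a lectin receptor.

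Marrow cells were grown in 20 ng/mL M-CSF, the growth factor that turns them into macrophages, over 7 days and then kept for 24 h alone or in 70% tumor-conditioned medium (TCM), taken from YUMM1.7 mouse melanoma cells. There were 5 groups. Wild-type macrophages had either no TCM (WT naive, n = 3) or TCM (WT TCM, n = 3), and those lacking TRAP1 had TCM (TRAP1 KO TCM, n = 4). From the JMJD3 line came a wild type (JMJD3 WT TCM, n = 3) and a conditional knockout (JMJD3 cKO TCM, n = 3), both given TCM. No group of the JMJD3 line and no TRAP1 knockout group was measured without TCM. TRAP1 is an HSP90-type chaperone of mitochondria. JMJD3, the product of Kdm6b, is a demethylase of lysine 27 on histone H3. The promoter that drives Cre in the conditional knockout, the exons it removes, and the age of the mice are not stated in the labels. Nor do the labels say whether each replicate was its own animal or culture. The p-values therefore measure only the spread between libraries, which may be technical.

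Receptors of this family let macrophages and dendritic cells sense sugars and lipids of microbes, dead cells and the body's own tissues. One branch, clustered on mouse chromosome 6, activates the kinase Syk through adaptors with an ITAM motif such as the Fc receptor gamma chain and DAP12, and from there CARD9 and NF-kB. A second branch carries inhibitory ITIM motifs that recruit the phosphatases SHP-1 and SHP-2. Another, with the mannose receptor at its head, takes up glycoproteins and collagen fragments without a strong signal of its own, and is widely used to mark alternatively activated macrophages.

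Library totals ran from 15361604 to 22426820 counts, and values are in CPM (a gene's count over the TMM-scaled total of its library, times 1000000, with one scaling over all 16 libraries), given as mean ± SD where they are averaged. Trap1 was at 67.7 ± 5.52 CPM in WT TCM and at 0.0377 CPM in TRAP1 KO TCM, where the 4 libraries held 3 counts together. Kdm6b had 25.1 ± 1.69 CPM in the JMJD3 wild type and 25.6 ± 1.02 in the libraries labelled JMJD3 cKO TCM (log2 fold change 0.035, adjusted p = 0.748), so these whole-gene counts do not check the label. Xist was at 840.3 to 936 CPM in the 6 libraries of the JMJD3 line and at 0 counts in WT TCM, while the Y-linked Ddx3y was at 86.5 CPM in WT TCM and at 0 counts in the JMJD3 line. Line, sex of the cells and set of libraries cannot be told apart. The knockouts are therefore set against the wild type of their own set. The 8 macrophage markers, among them Adgre1, Csf1r and Lyz2, were present in every group. They summed to 15805 to 16015 CPM in WT naive, 26386 to 26833 with TCM in wild type and 25467 to 25783 in the TRAP1 knockout. In the JMJD3 line the sum was 16098 to 16523 CPM in wild type and 12817 to 13198 in cKO. Lyz2 was the largest part of each sum, at 7978, 17941, 17291.5, 7424 and 4582 CPM in the same order. The 8 did not move together, and Adgre1 was at 3125, 2834, 2383, 1948 and 2177 CPM. The T cell list was nearly all Cd4 (14.7 to 33.996 CPM over the group means) and the endothelial list mostly Kdr (11.4 to 142 CPM). The B cell list and that of eosinophils, basophils and mast cells reached at most 8.03 and 2.38 CPM in every library. In bulk RNA, fewer cells of a type and less RNA per cell cannot be told apart.

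Of the 45 genes, 16 reached a group mean of 10 CPM and 21 reached 1 CPM, while 6 had no count in any library. To compare genes with one another, CPM was divided by the length of the union of a gene's exons. In WT naive the highest level per length was that of Clec4d at 177 CPM per kb, ahead of Clec12a at 106, Clec4a1 at 100.2 and Mrc1 at 95.2. WT TCM put Mrc1 first at 409 CPM per kb, followed by Clec4d at 225, Clec4a1 at 143, Clec12a at 69.4 and Clec4n at 59.9. Clec4n, which at 2.70 CPM per kb in WT naive overlapped Clec16a and Clec4b1, stood behind only Mrc1 (577) and Clec4d (311) in TRAP1 KO TCM, at 269. Both groups of the JMJD3 line kept Clec4d first. In JMJD3 WT TCM its 229.7 CPM per kb overlapped the 229 of Clec4a1 from library to library, with Mrc1 at 147, and in JMJD3 cKO TCM Clec4d stood at 223 while Clec4a1 at 180.2 and Mrc1 at 178 overlapped. With the longest transcript as the length, the level of Clec12a moved by more than 1.5 times, from 106 to 182 CPM per kb in WT naive. That length also turned the order of Mrc1 and Clec4a1 in WT naive, with 113 against 100.2 CPM per kb. It set Mrc1 at 211 against 180.2 for Clec4a1 in JMJD3 cKO TCM, and Clec4d at 278 against 229 in JMJD3 WT TCM.

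**Figure D1:**
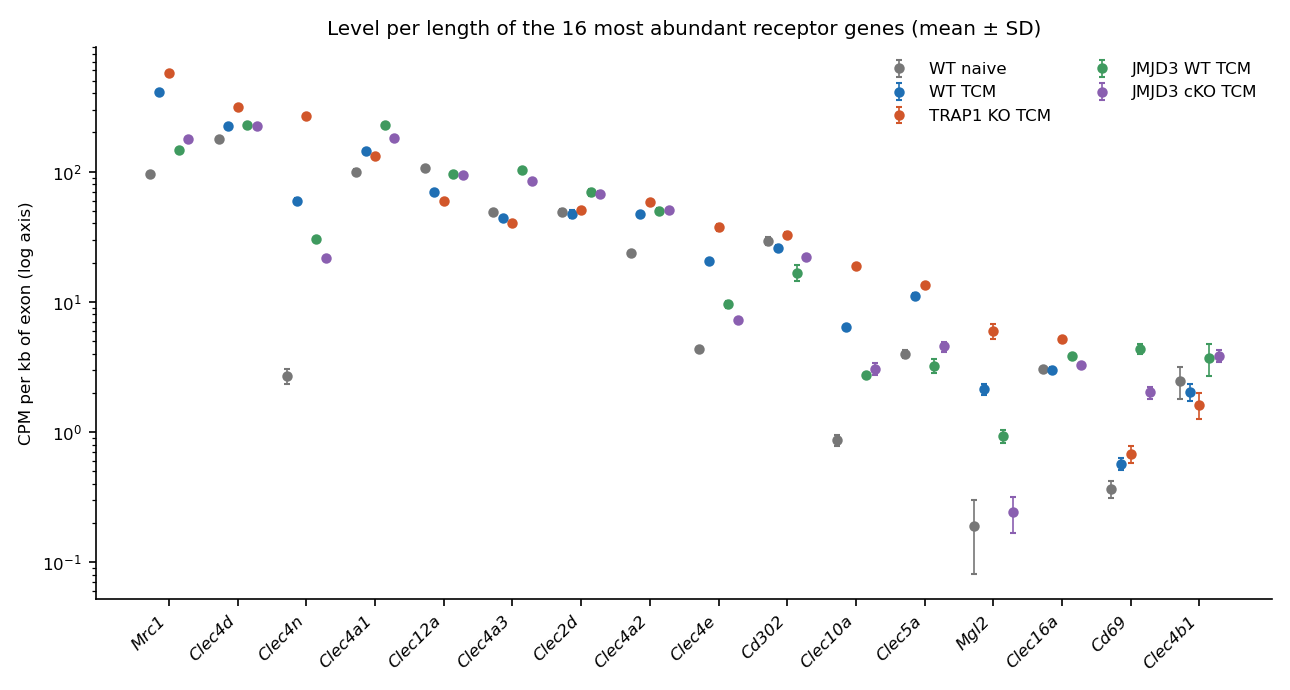
Level per length of the 16 most abundant members, as CPM per kb of exon on a log axis, with a point for the mean of each group and a bar for its SD over 3 libraries (4 for TRAP1 KO TCM). Mrc1 leads in WT TCM and TRAP1 KO TCM, Clec4d leads in the other groups, and Clec4n runs from 2.70 in WT naive to 269 in TRAP1 KO TCM.

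Summed over the family, transcript levels were 1956 ± 9.30 CPM in WT naive, 4152 ± 35.2 with TCM in wild type and 5791 ± 47.1 in the TRAP1 knockout. The JMJD3 line had 2792 ± 44.2 CPM in wild type and 2828 ± 15.2 in cKO. Mrc1 made up much of this sum, taking 31.0%, 62.7%, 63.5%, 33.5% and 40.1% of it in the same order. These are shares of CPM that was not divided by length, so long genes weigh more in them. The union of exons is 6371 bases for Mrc1 and 1599 for Clec4d, and the shares are not shares of transcript number. Without Mrc1 the sums were 1349.7 ± 8.35, 1549 ± 12.6, 2113 ± 27.0, 1858 ± 36.0 and 1694 ± 22.9 CPM.

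The start regions of 4 members are shown, Mrc1, Clec4d and Clec12a because they are among the most abundant per length and differ in direction, and Clec4e because it lies next to Clec4d and rose with it in the wild-type set. RefSeq start regions of the GRCm38.p6 assembly were matched for 37 of the 45 members, each of 300 bases around the annotated start. They lie at chr2:14229164-14229463, plus strand (Mrc1), chr6:123261857-123262156, plus strand (Clec4d), chr6:123289822-123290121, minus strand (Clec4e) and chr6:129349994-129350293, plus strand (Clec12a). The start that RefSeq gives for Clec12a lies inside the GENCODE gene. Capitals mark, on either strand, the letters GAGGAA (the core bound by PU.1, a factor that makes macrophages), TGANTCA (AP-1) and TTGCNNAA (C/EBP), with 13 matches and 0 overlaps between different motifs. Each sequence reads 5′ to 3′ on the strand of its gene.
Mrc1: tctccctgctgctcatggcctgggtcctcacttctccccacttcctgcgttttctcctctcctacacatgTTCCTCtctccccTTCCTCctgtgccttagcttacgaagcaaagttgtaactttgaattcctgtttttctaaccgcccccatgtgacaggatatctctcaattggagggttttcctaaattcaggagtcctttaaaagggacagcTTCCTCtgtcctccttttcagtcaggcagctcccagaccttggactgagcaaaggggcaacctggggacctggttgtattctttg
Clec4d: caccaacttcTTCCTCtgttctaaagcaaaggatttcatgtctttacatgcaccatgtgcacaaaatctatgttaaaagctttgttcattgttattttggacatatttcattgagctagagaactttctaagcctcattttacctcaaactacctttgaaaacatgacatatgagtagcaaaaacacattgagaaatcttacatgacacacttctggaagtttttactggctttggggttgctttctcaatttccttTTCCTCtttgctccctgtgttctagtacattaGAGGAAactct
Clec4e: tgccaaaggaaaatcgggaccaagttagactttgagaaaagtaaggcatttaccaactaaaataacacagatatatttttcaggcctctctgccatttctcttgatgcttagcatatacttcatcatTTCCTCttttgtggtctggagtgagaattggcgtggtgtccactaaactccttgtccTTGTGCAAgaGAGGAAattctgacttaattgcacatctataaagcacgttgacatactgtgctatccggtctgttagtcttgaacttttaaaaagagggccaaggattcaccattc
Clec12a: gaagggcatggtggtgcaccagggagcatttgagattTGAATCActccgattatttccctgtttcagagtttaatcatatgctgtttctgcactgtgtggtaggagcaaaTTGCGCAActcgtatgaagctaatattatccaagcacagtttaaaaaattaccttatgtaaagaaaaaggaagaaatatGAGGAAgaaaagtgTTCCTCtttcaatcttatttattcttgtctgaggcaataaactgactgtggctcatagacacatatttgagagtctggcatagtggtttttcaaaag
GAGGAA or its reverse complement was present in 16 of the 37 members' start regions, or 43.2%, and in 28.3% of the 27025 start regions of all genes, with the first RefSeq start of each gene counted. The other start of Clec4a3, which is listed with 2, also holds it. TGANTCA was found in 9 members' regions, or 24.3%, against 7.93% of all, and TTGCNNAA in 9, or 24.3%, against 10.8%. Of those with TGANTCA, Clec2h, Clec2g, Clec2e, Cd209f, Cd209g and Clec18a had only 1 to 56 counts over all libraries. The regions of Cd209f and Cd209g read alike around the match, as do those of Clec2e and Clec2h, so such copies count more than once. A match is a description of the letters in this window and not a bound site.

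A gene was tested where its counts passed a filter on low values, and called where edgeR's quasi-likelihood test gave an adjusted p under 0.05 over all genes tested. A member that passed the filter only through a group in which it is high had to differ, so the counts below describe the tested members and not all 45. In WT TCM against WT naive, 10 of 21 tested members rose, beside 21.6% of all 14073 genes tested, and 5 fell, beside 20.6%. In TRAP1 KO TCM against WT TCM, 12 of 21 rose, beside 21.2% of all genes, and 4 fell, beside 21.0%. In JMJD3 cKO TCM against JMJD3 WT TCM, 3 of 23 rose, beside 17.3% of 13471 genes, and 10 fell, beside 17.8%. The median log2 fold change of the tested members was 0.29 with TCM, 0.28 in TRAP1 KO TCM and -0.33 in JMJD3 cKO TCM, and that of all genes -0.0071, 0.0087 and 0.0083. Changes of at least 2-fold were found for 7 rising and 2 falling members with TCM, for 3 and 1 in TRAP1 KO TCM, and for 0 and 3 in JMJD3 cKO TCM. The share of all genes at this size was not computed, so these counts only describe the members. The first comparison and the second share the WT TCM libraries, as its treated and its control group.

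**Figure D2:**
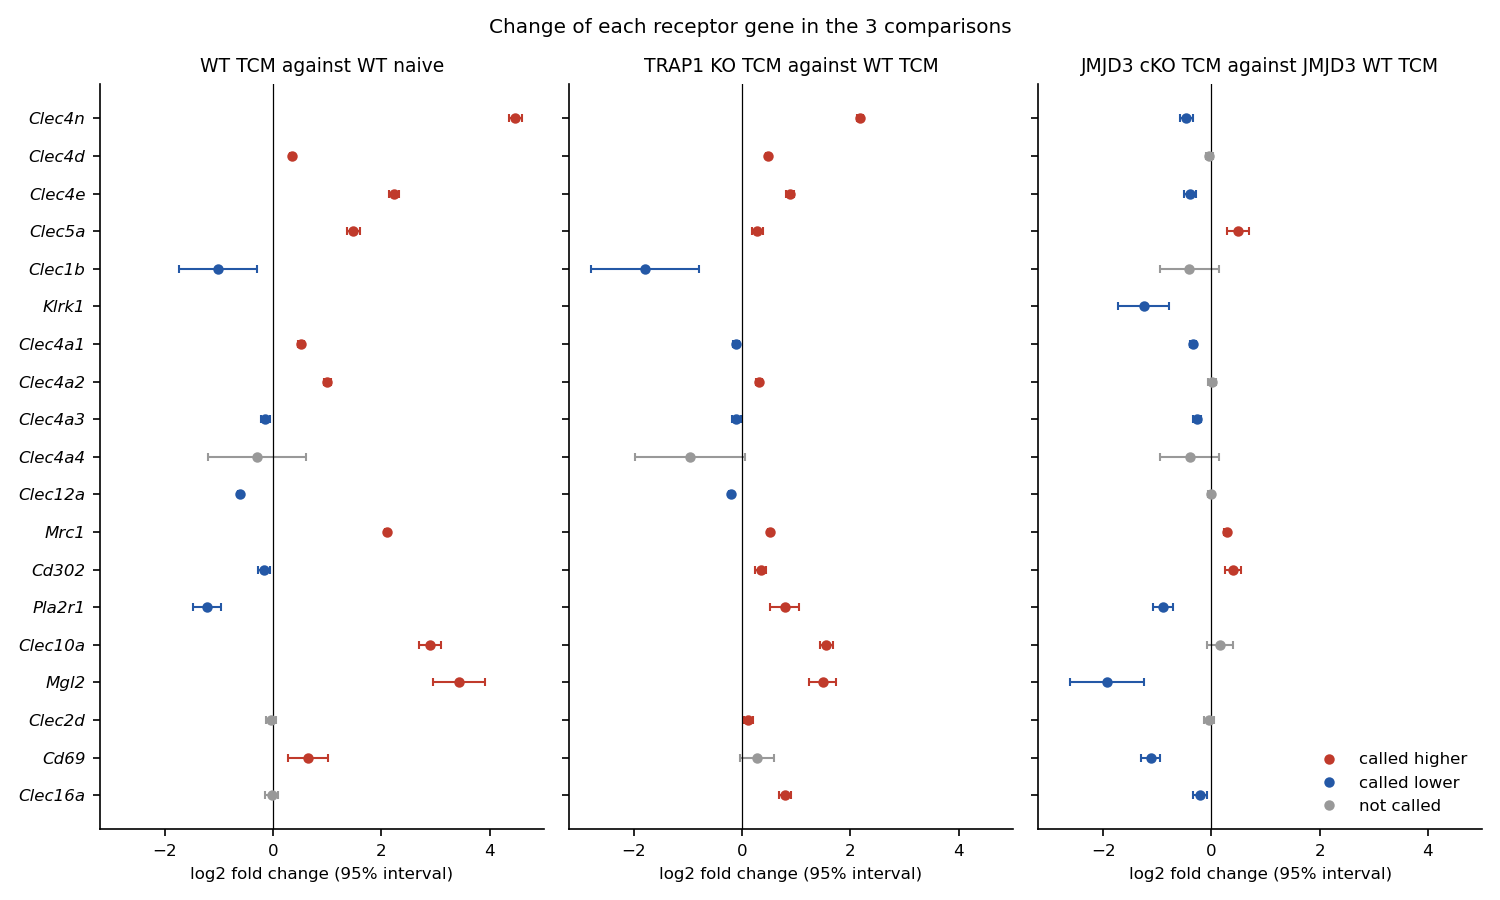
Log2 fold change of the 19 members given in full in the 3 comparisons, with the 95% interval of each as a bar, and coloured by whether edgeR called it higher, lower or neither. Clec4n has the largest value in the first and second panels (4.48 and 2.17), and Mgl2 the lowest in the third (-1.94). Klrk1 was not tested in the first and second.

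Among the 9 receptors that signal through Syk, 6 were tested in the wild-type set, and Clec4n, Clec4d, Clec4e and Clec5a rose both with TCM and in TRAP1 KO TCM, while Clec1b fell in each. The median log2 fold change of the tested 6 was 0.91 and 0.38. In JMJD3 cKO TCM 7 were tested, and Clec5a rose while Clec4n, Clec4e and Klrk1 fell (median -0.40). Neutrophils and monocytes also express several of these genes. The 8 neutrophil markers summed to 50.1 to 54.1 CPM in WT naive, 4.09 to 5.46 with TCM in wild type and 3.51 to 4.98 in the TRAP1 knockout, and in the JMJD3 line to 21.1 to 25.0 in wild type and 38.9 to 40.6 in cKO, with Ly6g at 0 in WT TCM, TRAP1 KO TCM and JMJD3 WT TCM. The 4 monocyte markers summed to 94.0 to 95.01, 90.7 to 96.1, 148 to 155, 183 to 186 and 174 to 189.7 CPM in the same order, and the part of either cell type was not tested. Clec4n (ENSMUSG00000023349, chromosome 6, 123229843 to 123247021, plus strand) encodes Dectin-2, which binds mannans of fungi and pairs with the Fc receptor gamma chain. Its level was 3.73, 3.40 and 4.38 CPM in the WT naive libraries, 87.5, 86.8 and 80.8 in those of WT TCM and 378, 377, 383 and 392 in those of TRAP1 KO. JMJD3 WT TCM held 40.9, 43.1 and 44.5 CPM and JMJD3 cKO TCM 29.6, 32.2 and 30.9. No group overlapped another, and the 5 groups stood in the order WT naive, JMJD3 cKO, JMJD3 WT, WT TCM and TRAP1 KO. The log2 fold change was 4.48 (SE 0.057, adjusted p = 1.16e-77) with TCM, 2.17 (SE 0.028, adjusted p = 3.42e-77) in TRAP1 KO TCM and -0.47 (SE 0.060, adjusted p = 2.14e-08) in JMJD3 cKO TCM.

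Clec4e (ENSMUSG00000030142, chromosome 6, 123281789 to 123289870, minus strand) encodes Mincle, the receptor of mycobacterial cord factor and of SAP130 from dying cells. Its transcript was at 21.0, 21.6 and 22.3 CPM in the WT naive libraries, 102, 102 and 101 in those of WT TCM and 186, 179, 178 and 203 in those of TRAP1 KO. The JMJD3 line had 46.0, 46.0 and 50.8 CPM in wild type and 36.6, 35.5 and 35.8 in cKO. All 5 groups stood apart, in the same order as for Clec4n. The log2 fold change of Clec4e was 2.23 (SE 0.046, adjusted p = 9.76e-47) with TCM, 0.88 (SE 0.033, adjusted p = 1.32e-32) in TRAP1 KO TCM and -0.40 (SE 0.057, adjusted p = 1.96e-07) in JMJD3 cKO TCM. Clec4d (ENSMUSG00000030144, chromosome 6, 123262111 to 123275265, plus strand), which encodes the Mincle partner MCL, was already abundant without TCM. Counts corresponded to 277, 289 and 283 CPM in the WT naive libraries, 362, 366 and 353 in those of WT TCM and 510.0, 489, 498 and 494 in those of TRAP1 KO. In the JMJD3 line they were 372, 359 and 371 CPM in wild type and 354, 365 and 353 in cKO. The wild-type groups and the TRAP1 knockout did not overlap one another, and the 2 JMJD3 groups did. Its log2 fold changes were 0.35 (SE 0.021, adjusted p = 8.6e-27) with TCM and 0.47 (SE 0.019, adjusted p = 2.25e-38) in TRAP1 KO TCM. It was not called in JMJD3 cKO TCM (-0.035, 95% interval -0.091 to 0.021, adjusted p = 0.36).

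Clec5a (ENSMUSG00000029915, chromosome 6, 40574894 to 40585821, minus strand) encodes a DAP12-linked receptor of flaviviruses on myeloid cells, and lies apart from the others on chromosome 6. Levels were 15.4, 16.3 and 14.2 CPM in the WT naive libraries, 43.6, 40.4 and 44.0 in those of WT TCM and 50.0, 51.8, 52.8 and 51.2 in those of TRAP1 KO. They were 13.3, 10.7 and 13.2 CPM in the JMJD3 WT libraries and 15.9, 18.9 and 17.7 in those of the cKO. Within each comparison the groups did not overlap. The JMJD3 line with TCM was near the level of WT naive, which is from another line, sex and library set. Without a JMJD3 group lacking TCM, its own change with TCM is not known. Clec5a rose with a log2 fold change of 1.48 (SE 0.061, adjusted p = 1.76e-38) with TCM, 0.28 (SE 0.049, adjusted p = 1.04e-06) in TRAP1 KO TCM and 0.49 (SE 0.097, adjusted p = 6.9e-05) in JMJD3 cKO TCM, as 1 of the 3 members that rose there.

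Clec1b (ENSMUSG00000030159, chromosome 6, 129397297 to 129409335, plus strand) encodes CLEC-2, the podoplanin receptor best known on platelets, and its annotation overlaps that of Clec9a on the same strand, so shared reads are uncertain. It was low throughout, at 1.20, 1.16 and 1.27 CPM in the WT naive libraries, 0.606, 0.607 and 0.571 in those of WT TCM and 0.214, 0.190, 0.0994 and 0.162 in those of TRAP1 KO. JMJD3 WT TCM had 1.98, 1.80 and 1.79 CPM and JMJD3 cKO TCM 1.06, 1.51 and 1.60. TRAP1 KO was lowest and JMJD3 WT highest, and only WT naive and JMJD3 cKO overlapped. The log2 fold change was -1.01 (SE 0.36, adjusted p = 0.0181) with TCM and -1.80 (SE 0.50, adjusted p = 0.00189) in TRAP1 KO TCM. The call with TCM was lost under DESeq2 and without WT TCM replicate 1, 2 or 3 or WT naive replicate 3 (adjusted p up to 0.0555 over its alternatives). It was not called in JMJD3 cKO TCM (-0.41, adjusted p = 0.267). The 5 platelet markers summed to 582 to 588 CPM in WT TCM and 1025 to 1040.4 in TRAP1 KO TCM, nearly all of it Pf4 (581 and 1024 CPM), with Gp1bb at 0 in every group. The part of platelets in the Clec1b result was not tested.

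Klrk1 (ENSMUSG00000030149, chromosome 6, 129610323 to 129623864, minus strand) encodes NKG2D, the activating receptor of NK and T cells for stress-induced MHC-like ligands. In JMJD3 WT TCM it stood at 3.59, 3.67 and 2.81 CPM and in JMJD3 cKO TCM at 1.22, 1.56 and 1.42, with no overlap, a log2 fold change of -1.25 (SE 0.23, adjusted p = 3.04e-05). The other libraries held few counts, 27 in WT naive, 3 in WT TCM and 2 in TRAP1 KO TCM, which did not pass the filter. The ratio of counts per scaled total in WT TCM over WT naive was 0.137, with an exact 95% interval of 0.0266 to 0.445. The 5 NK cell markers summed to 0.310 to 0.347 CPM in the JMJD3 wild type and 0.366 to 0.898 in the cKO. Elsewhere the mean sum was 0.214 CPM for WT naive, 0.0536 with TCM in wild type and 0.0492 for the TRAP1 knockout. Prf1 had 11 counts in the JMJD3 wild type, Ncr1 and Gzma 2 each, and Eomes and Klrb1c 0. The cKO held 9 for Prf1, and 4, 10, 1 and 11 for the others in that order. Prf1 had 1 count in naive cells, 1 with TCM in wild type and 0 without TRAP1. The part of NK cells in the Klrk1 result was not tested. Of the remaining members of this branch, Clec4b1 (DCAR) lay at 1.27 to 3.02 CPM over the 5 group means and was called in none of the 3 comparisons. Clec9a, a receptor for actin of dead cells on cross-presenting dendritic cells, and Clec4b2 were not tested, with 23, 8, 4, 21 and 21 counts for Clec9a in WT naive, WT TCM, TRAP1 KO, JMJD3 WT and JMJD3 cKO, and at most 5 in a group for Clec4b2.

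**Figure D3:**
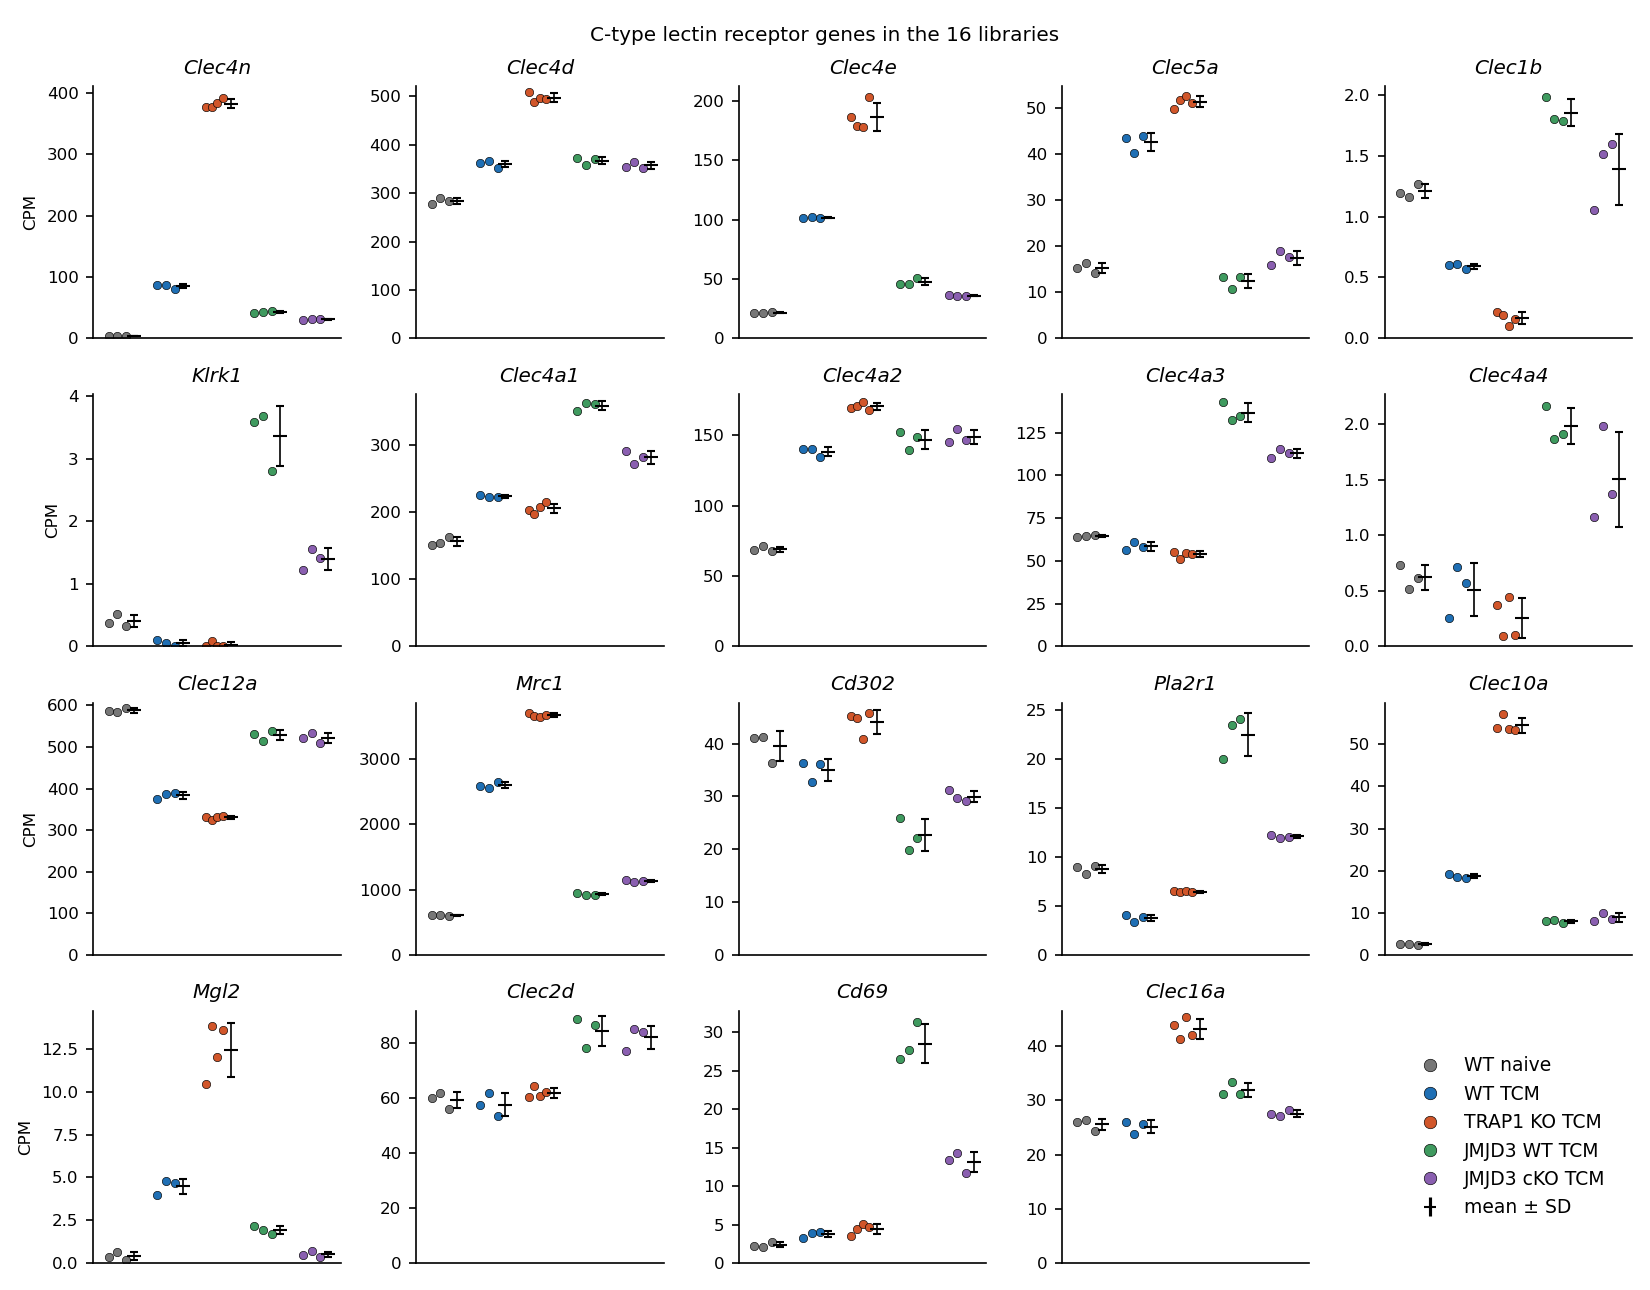
CPM of the 19 members given in full in each of the 16 libraries, with 1 panel per gene, each with its own axis from 0. Each point is a library, coloured by group, and the bars give mean ± SD. Clec4n, Clec4e, Clec10a and Mgl2 are highest in TRAP1 KO TCM, whereas Cd69, Klrk1, Clec4a1 and Clec4a3 are highest in JMJD3 WT TCM.

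The DCIR group and the inhibitory receptors, 6 genes of which 5 were tested in the wild-type set, moved in both directions. With TCM, Clec4a1 and Clec4a2 rose and Clec4a3 and Clec12a fell (median log2 fold change -0.14). In TRAP1 KO TCM, Clec4a2 rose and Clec4a1, Clec4a3 and Clec12a fell (median -0.11). In JMJD3 cKO TCM, Clec4a1 and Clec4a3 fell and the other 4 were not called. The Clec4a genes are close copies of each other, and how reads shared among them were counted is not stated in the labels. Clec12a (ENSMUSG00000053063, chromosome 6, 129342691 to 129365303, plus strand) encodes MICL, an ITIM receptor that senses uric acid crystals and restrains Syk signals. It was at 587, 583 and 594 CPM in the WT naive libraries, 374, 388 and 389 in those of WT TCM and 331, 325, 331 and 335 in those of TRAP1 KO. Levels were 531, 515 and 539 CPM in the JMJD3 WT libraries and 521, 533 and 509.7 in those of the cKO. WT naive was highest and TRAP1 KO lowest, without overlap, and the JMJD3 groups overlapped each other. Clec12a fell with TCM, with a log2 fold change of -0.62 (SE 0.020, adjusted p = 8.51e-47), and again in TRAP1 KO TCM, with -0.21 (SE 0.019, adjusted p = 1.36e-16). In JMJD3 cKO TCM the 95% interval of its log2 fold change was -0.069 to 0.039.

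Clec4a2 (ENSMUSG00000030148, chromosome 6, 123106428 to 123143999, plus strand) encodes DCIR1, the mouse counterpart of the human inhibitory receptor DCIR. Its level was 68.3, 71.1 and 67.7 CPM in the WT naive libraries, 139.9, 140.2 and 135 in those of WT TCM and 169, 171, 174 and 168 in those of TRAP1 KO, 3 groups with no overlap. JMJD3 WT TCM had 152, 139.5 and 149 CPM and JMJD3 cKO TCM 145, 154 and 146, which overlapped. The log2 fold change was 1.003 (SE 0.032, adjusted p = 2.65e-46) with TCM, 0.31 (SE 0.028, adjusted p = 7.38e-17) in TRAP1 KO TCM and 0.019 (adjusted p = 0.729) in JMJD3 cKO TCM. Clec4a1 (ENSMUSG00000049037, chromosome 6, 122921848 to 122934619, plus strand), which encodes DCIR4, was at 151, 154 and 163 CPM in the WT naive libraries, 225, 222 and 222 in those of WT TCM and 203, 197, 207 and 214 in those of TRAP1 KO. The JMJD3 line was higher, with 349.6, 362 and 360.4 CPM in wild type and 291, 271 and 281 in cKO. Each comparison had groups that did not overlap, and TRAP1 KO lay only slightly under WT TCM. For Clec4a1 the log2 fold change was 0.51 (SE 0.027, adjusted p = 9.3e-30) with TCM, -0.11 (SE 0.025, adjusted p = 0.000133) in TRAP1 KO TCM and -0.34 (SE 0.030, adjusted p = 6.74e-13) in JMJD3 cKO TCM.

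Clec4a3 (ENSMUSG00000043832, chromosome 6, 122952515 to 122969875, plus strand) encodes DCIR3. It was at 64.3, 64.3 and 65.2 CPM in the WT naive libraries, 56.3, 61.1 and 58.0 in those of WT TCM and 55.1, 51.3, 54.8 and 54.0 in those of TRAP1 KO. In the JMJD3 line it was at 143, 132 and 134 CPM in wild type and 110.2, 115 and 113 in cKO. Log2 fold changes were -0.14 (SE 0.042, adjusted p = 0.00283) with TCM, -0.11 (SE 0.041, adjusted p = 0.0193) in TRAP1 KO TCM and -0.27 (SE 0.038, adjusted p = 1.26e-07) in JMJD3 cKO TCM, and the second was not called without either TRAP1 KO TCM replicate 2 or WT TCM replicate 2 (adjusted p up to 0.175). Clec4a4, which encodes DCIR2 of dendritic cells, was near the limit of detection in the wild-type set, at 0.736, 0.516 and 0.613 CPM in the WT naive libraries, 0.252, 0.717 and 0.571 in those of WT TCM and 0.375, 0.0951, 0.447 and 0.108 in those of TRAP1 KO. In the JMJD3 line it was at 2.17, 1.87 and 1.92 CPM in wild type and 1.16, 1.98 and 1.37 in cKO. Its groups overlapped in each of the 3 comparisons, and it was called in none. Clec12b, an ITIM receptor, had at most 0.742 CPM as a group mean. Of the 3 comparisons, it was tested only in JMJD3 cKO TCM against JMJD3 WT TCM, where it was not called (adjusted p = 0.302).

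In the mannose receptor family and Cd302, 4 of 5 genes were tested. With TCM, Mrc1 rose and Cd302 and Pla2r1 fell, and in TRAP1 KO TCM all 3 of these rose and Ly75 was not called (medians of the 4 -0.52 and 0.42). Mrc1 and Cd302 rose and Pla2r1 fell in JMJD3 cKO TCM. Mrc1 (ENSMUSG00000026712, chromosome 2, 14229392 to 14332057, plus strand) encodes the macrophage mannose receptor CD206. Its level was 609, 612 and 598 CPM in the WT naive libraries, 2586, 2568 and 2655 in those of WT TCM and 3717, 3663, 3647 and 3685 in those of TRAP1 KO. JMJD3 WT TCM had 954, 925 and 924 CPM and JMJD3 cKO TCM 1149, 1118 and 1136. No group overlapped another, and the JMJD3 line with TCM lay between WT naive and WT TCM. Mrc1 had a log2 fold change of 2.10 (SE 0.014, adjusted p = 7.91e-101) with TCM, 0.51 (SE 0.013, adjusted p = 1.26e-54) in TRAP1 KO TCM and 0.28 (SE 0.024, adjusted p = 4.64e-13) in JMJD3 cKO TCM.

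Pla2r1 (ENSMUSG00000054580, chromosome 2, 60417543 to 60553308, minus strand) encodes the M-type receptor of secreted phospholipases A2. It was at 8.97, 8.26 and 9.10 CPM in the WT naive libraries, 4.04, 3.37 and 3.87 in those of WT TCM and 6.48, 6.37, 6.51 and 6.37 in those of TRAP1 KO. The JMJD3 line had 20.0, 23.5 and 24.1 CPM in wild type and 12.3, 11.9 and 12.1 in cKO. All 5 groups stood apart, with WT TCM lowest and JMJD3 WT highest. For Pla2r1 the log2 fold change was -1.22 (SE 0.13, adjusted p = 1.26e-13) with TCM, 0.78 (SE 0.13, adjusted p = 4.03e-07) in TRAP1 KO TCM and -0.89 (SE 0.089, adjusted p = 4.25e-11) in JMJD3 cKO TCM. Cd302 (ENSMUSG00000060703, chromosome 2, 60251993 to 60284488, minus strand), a small receptor linked to uptake and cell migration, was at 41.1, 41.3 and 36.3 CPM in the WT naive libraries, 36.4, 32.7 and 36.1 in those of WT TCM and 45.2, 44.9, 40.8 and 45.9 in those of TRAP1 KO. Levels were 26.0, 19.9 and 22.2 CPM in the JMJD3 WT libraries and 31.2, 29.7 and 29.1 in those of the cKO. WT naive and WT TCM overlapped, and the other pairs compared did not. Its log2 fold change was -0.18 (SE 0.056, adjusted p = 0.0065) with TCM, 0.34 (SE 0.052, adjusted p = 3.78e-08) in TRAP1 KO TCM and 0.40 (SE 0.075, adjusted p = 3.4e-05) in JMJD3 cKO TCM. The call with TCM was lost without WT TCM replicate 2 or WT naive replicate 1 or 2 (adjusted p up to 0.0952). Ly75 (DEC-205, an antigen uptake receptor of dendritic cells) lay under 1 CPM in every group mean and was called in none of the 3 comparisons. Between the 2 wild types with TCM it was called higher in JMJD3 WT TCM, with 43 counts against 15 in WT TCM. Mrc2, the collagen receptor Endo180 of fibroblasts, held 18 counts in WT naive, 1 in WT TCM and 10 in TRAP1 KO TCM and was not tested. Its count ratio in WT TCM over WT naive was 0.0685, with an exact 95% interval of 0.00164 to 0.434. The 6 fibroblast markers summed to 13.3 to 14.4 CPM in WT naive, 0.166 to 0.404 in WT TCM and 4.71 to 6.96 in TRAP1 KO TCM, with Col3a1, Dcn and Pdgfra at 0 in WT TCM, and their part in the Mrc2 counts was not tested.

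Both tested galactose-type receptors, Clec10a and Mgl2, rose by at least 2-fold with TCM and again in TRAP1 KO TCM, and they parted in the JMJD3 line. The genes are neighbours, and close copies, on chromosome 11, 0.717 Mb (Mgl2) and 0.743 Mb (Clec10a) from Kdm6b, the gene targeted in the JMJD3 line. Clec10a (ENSMUSG00000000318, chromosome 11, 70156197 to 70170834, plus strand) encodes MGL1, which binds galactose and Lewis X sugars. Its level was 2.62, 2.67 and 2.22 CPM in the WT naive libraries, 19.2, 18.5 and 18.3 in those of WT TCM and 53.9, 57.2, 53.7 and 53.4 in those of TRAP1 KO. JMJD3 WT TCM held 7.93, 8.25 and 7.66 CPM and JMJD3 cKO TCM 8.14, 9.96 and 8.47, which overlapped. The log2 fold change was 2.90 (SE 0.10, adjusted p = 1.04e-43) with TCM and 1.55 (SE 0.059, adjusted p = 1.26e-40) in TRAP1 KO TCM, and 0.16 (95% interval -0.079 to 0.40, adjusted p = 0.318) in JMJD3 cKO TCM. Mgl2 (ENSMUSG00000040950, chromosome 11, 70130329 to 70137550, plus strand) encodes MGL2 (CD301b), which binds N-acetylgalactosamine. It was at 0.368, 0.645 and 0.189 CPM in the WT naive libraries, 3.99, 4.80 and 4.69 in those of WT TCM and 10.4, 13.8, 12.02 and 13.6 in those of TRAP1 KO. In the JMJD3 line it was at 2.17, 1.94 and 1.72 CPM in wild type and 0.476, 0.678 and 0.366 in cKO. No pair of compared groups overlapped, and JMJD3 cKO overlapped WT naive. Mgl2 had log2 fold changes of 3.44 (SE 0.24, adjusted p = 2.84e-22) with TCM, 1.49 (SE 0.13, adjusted p = 3.59e-18) in TRAP1 KO TCM and -1.94 (SE 0.34, adjusted p = 1.04e-05) in JMJD3 cKO TCM. Clec4f, the galactose-binding receptor of Kupffer cells, had 1 count in all.

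The Cd209 group, relatives of human DC-SIGN that bind mannose and fucose, comprised 7 Cd209 genes and Clec4g in 1 cluster on chromosome 8, and none was abundant enough to be tested. Cd209b, Cd209c, Cd209d and Cd209e had 0 counts in all 16 libraries, which allows up to 0.129 to 0.208 CPM in a library. Cd209f had 8 counts over WT TCM and 17, 9, 15 and 7 in the TRAP1 KO TCM libraries, and 0 in WT naive and in the JMJD3 line. The exact 95% interval of its count ratio in WT TCM over WT naive began at 2.10. Cd209g had 3, 6, 3 and 6 counts in the TRAP1 KO TCM libraries and 0 in every other library, and the interval of its ratio in TRAP1 KO TCM over WT TCM began at 3.01. Both are present in each of the 4 knockout libraries, at levels that no test here reached. Intervals and limits of this kind cover counting error only.

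In the Clec2 group and Cd69, 3 of 7 genes were tested, and the JMJD3 line stood out by level. Cd69 (ENSMUSG00000030156, chromosome 6, 129267325 to 129275436, minus strand) encodes an early activation antigen that holds lymphocytes in tissues. It was at 2.25, 2.11 and 2.78 CPM in the WT naive libraries, 3.28, 3.92 and 3.99 in those of WT TCM and 3.53, 4.47, 5.12 and 4.64 in those of TRAP1 KO. JMJD3 WT TCM had 26.6, 27.7 and 31.4 CPM and JMJD3 cKO TCM 13.4, 14.3 and 11.7. The JMJD3 groups overlapped neither each other nor the wild-type set, and WT TCM overlapped TRAP1 KO TCM. Cd69 rose with TCM, with a log2 fold change of 0.64 (SE 0.18, adjusted p = 0.00247), and fell in JMJD3 cKO TCM, with -1.12 (SE 0.086, adjusted p = 1.84e-14). In TRAP1 KO TCM it was not called (0.27, adjusted p = 0.173). Clec2d (ENSMUSG00000030157, chromosome 6, 129180615 to 129186534, plus strand) encodes OCIL, a ligand of the NK receptor NKR-P1B. Its level was 59.98, 61.7 and 56.0 CPM in the WT naive libraries, 57.3, 61.8 and 53.6 in those of WT TCM and 60.3, 64.4, 60.7 and 62.2 in those of TRAP1 KO. In JMJD3 WT TCM it was 88.6, 78.3 and 86.6 CPM and in JMJD3 cKO TCM 77.3, 85.0 and 83.9. Groups overlapped in each comparison. Its sole call in these 3 comparisons was the rise in TRAP1 KO TCM (log2 fold change 0.11, standard error 0.042, adjusted p = 0.026), which was lost under DESeq2, with no filter, and without TRAP1 KO TCM replicate 2 or WT TCM replicate 1 or 3 (adjusted p up to 0.295). Clec2i, a ligand of NKR-P1 receptors, fell in JMJD3 cKO TCM, from 5.84 ± 0.598 to 4.38 ± 0.265 CPM (log2 fold change -0.41, standard error 0.15, adjusted p = 0.0267). Clec2g, not tested, had 8 counts in WT naive, 0 in WT TCM and 0, 8, 5 and 1 in the TRAP1 KO TCM libraries, so that WT TCM and the knockout overlapped. Clec2e, Clec2h and Clec2l had 16, 1 and 4 counts over all libraries.

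Clec16a (ENSMUSG00000068663, chromosome 16, 10545339 to 10744878, plus strand) was the only one of the 7 remaining members to be tested, and its product regulates mitophagy together with the ubiquitin ligase RNF41. It was at 26.0, 26.4 and 24.4 CPM in the WT naive libraries, 26.0, 23.8 and 25.7 in those of WT TCM and 43.9, 41.4, 45.5 and 42.1 in those of TRAP1 KO. Levels in the JMJD3 line were 31.3, 33.5 and 31.2 CPM in wild type and 27.4, 27.1 and 28.2 in cKO. TRAP1 KO TCM stood above every other group, and WT naive and WT TCM overlapped. Clec16a rose in TRAP1 KO TCM, with a log2 fold change of 0.79 (SE 0.056, adjusted p = 1.63e-22), fell in JMJD3 cKO TCM, with -0.21 (SE 0.064, adjusted p = 0.0097), and was not called with TCM (adjusted p = 0.772). The JMJD3 call was lost under DESeq2 and without JMJD3 WT TCM replicate 2 (adjusted p up to 0.0584). Clec16a lies on chromosome 16, as does Trap1, 6.47 Mb away. Secreted and vascular members were near 0, with 106 counts over all libraries for Clec11a, a bone growth factor, 45 for Clec1a, 39 for Clec3b (tetranectin), 1 for Clec18a and 0 for Clec3a and Clec14a.

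By position, 24 of the 45 members lie on chromosome 6. The Dectin-2 gene cluster, 9 genes between 122921848 and 123289870, held 8 tested genes, of which 5 rose and 1 fell with TCM, 4 rose and 2 fell in TRAP1 KO TCM, and 0 rose and 4 fell in JMJD3 cKO TCM, beside the shares of all genes given above. Clec4n, Clec4d and Clec4e lie together at one end of it, and Clec4a1, Clec4a3 and Clec4a4 at the other, with Clec4a2 in between, flanked by Clec4b1 and Clec4b2. In TRAP1 KO TCM Clec4n, Clec4d, Clec4e and Clec4a2 rose and Clec4a1 and Clec4a3 fell. A second cluster of 12 genes on the same chromosome, from Clec2h to Klrk1, held 5 tested genes in the wild-type set. Clec12a and Clec1b fell both with TCM and in TRAP1 KO TCM, while Cd69 rose with TCM and Clec2d in TRAP1 KO TCM, the last with the lost calls given above. In JMJD3 cKO TCM 7 were tested, of which 0 rose and Clec2i, Cd69 and Klrk1 fell.

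**Figure D4:**
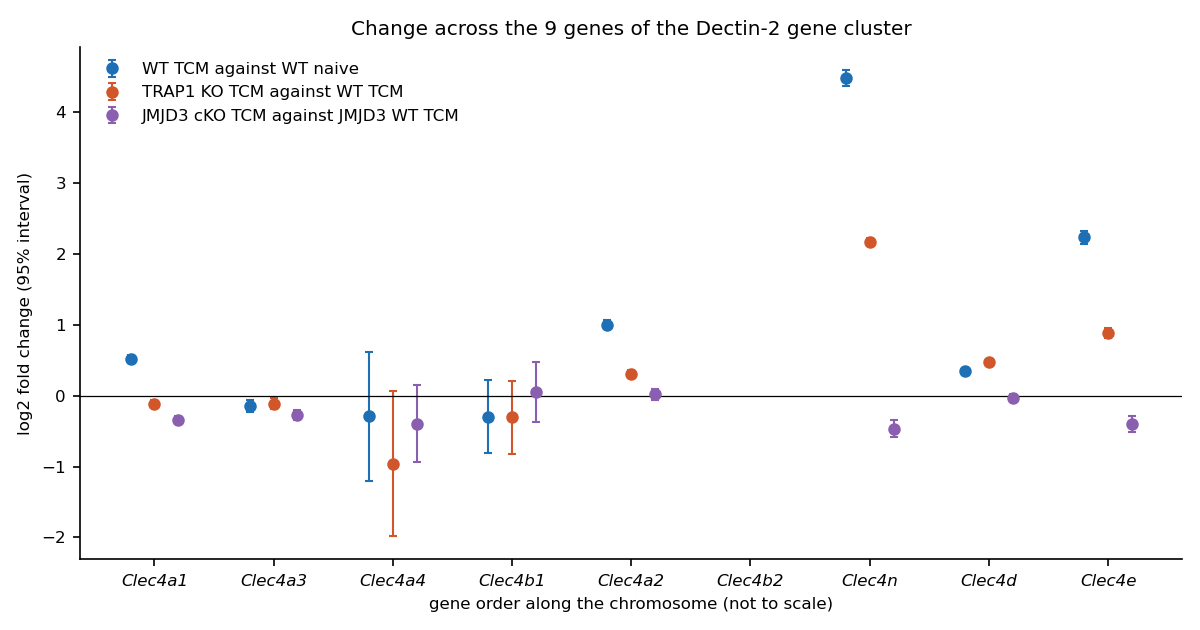
Log2 fold change, with its 95% interval, of the genes of the Dectin-2 cluster in the order in which they lie on chromosome 6, for the 3 comparisons. Clec4b2 was not tested and is left blank. Clec4n and Clec4e carry the highest values with TCM (4.48 and 2.23) and in TRAP1 KO TCM (2.17 and 0.88), and lie under 0 in JMJD3 cKO TCM.

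The 2 wild types with TCM were compared as a description of the sets, since line, sex and library set cannot be told apart. JMJD3 WT TCM had 15 of 23 tested members higher than WT TCM, beside 30.0% of 14540 genes, and 7 lower, beside 31.3%, with a median log2 fold change of 0.55 (all genes -0.0041). All 6 genes of the DCIR group and the inhibitory receptors were higher in JMJD3 WT TCM, with log2 fold changes from 0.087 for Clec4a2, whose call was lost without JMJD3 WT TCM replicate 1 or 3 or WT TCM replicate 3 (adjusted p up to 0.184), to 1.96 for Clec4a4. Of the 6, Clec12b (35 counts against 11 in WT TCM) did not pass the filter in the 10 libraries without the JMJD3 line. Its call here therefore only describes its level. Among the other higher members the log2 fold change was 2.94 (SE 0.12, adjusted p = 4.35e-40) for Cd69 and 2.58 (SE 0.11, adjusted p = 3.85e-37) for Pla2r1. Klrk1 held 155 counts against 3, a count ratio of 60.03, with an exact 95% interval of 20.2 to 294. The 7 lower members had log2 fold changes of -1.77 (SE 0.074, adjusted p = 5.29e-39) for Clec5a, -1.48 (SE 0.018, adjusted p = 2.59e-82) for Mrc1, -1.23 for Clec10a, -1.20 for Mgl2, -1.09 for Clec4e, -0.99 for Clec4n and -0.62 for Cd302. Clec4d was the only tested member not called (0.027, 95% interval -0.021 to 0.075). The 8 dendritic cell markers summed to 13.9 to 15.1 CPM in JMJD3 WT TCM, 8.97 to 9.83 in JMJD3 cKO TCM and 3.49 to 4.69 in WT TCM. Most of that sum was Xcr1 (7.87 CPM in JMJD3 WT TCM) and Batf3 (2.85), while Flt3 and Zbtb46 lay at 0.130 and 0.150 CPM, and the part of these cells in the receptor levels was not tested.

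Whether the 2 genotype effects differed for a gene was tested as the change in TRAP1 KO TCM minus the change in JMJD3 cKO TCM. The difference was above 0 for 12 of 23 tested members, beside 18.4% of all genes, and below 0 for 2, beside 19.5%. It was 3.42 (SE 0.32, adjusted p = 6.67e-16) for Mgl2, 2.64 (SE 0.059, adjusted p = 1.73e-59) for Clec4n, 1.67 (SE 0.16, adjusted p = 3.3e-16) for Pla2r1, 1.39 (SE 0.12, adjusted p = 2.01e-17) for Clec10a, 1.38 (SE 0.17, adjusted p = 3.81e-11) for Cd69 and 1.28 (SE 0.062, adjusted p = 3.09e-32) for Clec4e. For Clec16a it was 0.99 (SE 0.085, adjusted p = 4.38e-18) and for Clec4d 0.51 (SE 0.032, adjusted p = 3.49e-25). For Mrc1, which rose in both, the difference was 0.22 (SE 0.024, adjusted p = 4.96e-13). Clec4a2, Clec4a1 and Clec4a3 differed by 0.29, 0.23 and 0.16, the last a call lost without WT TCM replicate 1, JMJD3 WT TCM replicate 1 or JMJD3 cKO TCM replicate 1 (adjusted p up to 0.0977). Clec12a (-0.19 (SE 0.031, adjusted p = 1.09e-07)) and Clec1b (-1.39 (SE 0.56, adjusted p = 0.0397)) lay below 0, and the call of Clec1b was lost under DESeq2, with no filter, with a replicate block and without any of the 3 WT TCM libraries, TRAP1 KO TCM replicate 3 or 4, or replicate 2 or 3 of either JMJD3 group (adjusted p up to 0.0961). For Cd302 and Clec5a, which rose with both genotypes, the difference was -0.063 (95% interval -0.24 to 0.12) and -0.22 (95% interval -0.42 to -0.021) and was not called.

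Clec7a, whose product Dectin-1 binds fungal beta-glucan and signals through Syk, had 46.2 ± 2.63 CPM in WT naive, 45.5 ± 1.75 with TCM in wild type and 33.7 ± 2.99 in the TRAP1 knockout. In the JMJD3 line it had 43.0 ± 2.63 CPM in wild type and 51.3 ± 2.59 in cKO. It was not called with TCM (adjusted p = 0.72), fell in TRAP1 KO TCM (log2 fold change -0.42, standard error 0.053, adjusted p = 9.32e-11) and rose in JMJD3 cKO TCM (log2 fold change 0.26, standard error 0.055, adjusted p = 0.00025). Its direction was the opposite of that of Clec4n and Clec4e in both genotypes.

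All 26 listed signalling partners of these receptors were tested. With TCM 11 rose and 9 fell (median 0.073), in TRAP1 KO TCM 10 rose and 6 fell (-0.012), and in JMJD3 cKO TCM 3 rose and 12 fell (-0.083), beside the shares of all genes given above. Syk itself fell by 0.18, 0.21 and 0.17 on the log2 scale in the 3 comparisons, from 374 CPM in WT naive to 329.5 in WT TCM and 284 in TRAP1 KO TCM. Fcer1g, the adaptor of Dectin-2 and Mincle, was not called with TCM and fell by 0.19 in TRAP1 KO TCM and by 0.19 in JMJD3 cKO TCM. The Src family kinase Fgr rose from 5.14 ± 0.489 to 10.6 ± 0.776 CPM with TCM and to 34.9 ± 1.52 in TRAP1 KO TCM, with log2 fold changes of 1.04 (SE 0.10, adjusted p = 4.51e-15) and 1.73 (SE 0.076, adjusted p = 2.32e-36). Lsp1, a leukocyte protein of the DC-SIGN signalosome, rose in WT TCM over WT naive (log2 fold change 1.43, standard error 0.036, adjusted p = 5.92e-55). Relb, a subunit of NF-kB, rose in TRAP1 KO TCM (log2 fold change 0.54, standard error 0.046, adjusted p = 2e-18) and fell in JMJD3 cKO TCM (log2 fold change -0.44, standard error 0.061, adjusted p = 1.32e-07).

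Of 7 listed ligands, 6 were tested, with 2 rising and 1 falling with TCM, 4 rising and 1 falling in TRAP1 KO TCM, and 2 rising and 0 falling in JMJD3 cKO TCM. With so few genes these counts are only a description, to be read beside the shares of all genes given above. Pdpn, the podoplanin bound by the Clec1b product, rose in the TRAP1 knockout, from 13.4 ± 1.05 to 72.8 ± 3.07 CPM (log2 fold change 2.44, standard error 0.058, adjusted p = 1.87e-56). It had fallen with TCM (log2 fold change -0.43, adjusted p = 3.84e-07) and rose in JMJD3 cKO TCM (0.52, adjusted p = 1.56e-07). Sap130, which encodes the Mincle ligand SAP130, was the one that fell in TRAP1 KO TCM (-0.21, adjusted p = 5.34e-05). The NKG2D ligand H60b was at 1.56 ± 0.306 and 4.30 ± 0.267 CPM in WT TCM and the knockout (log2 fold change 1.47, standard error 0.20, adjusted p = 4.59e-10). Of 34 listed genes with a related domain outside the rule, 33 were found and 8 tested in the wild-type set, with 1 rising and 6 falling with TCM and 4 rising and 1 falling in TRAP1 KO TCM, beside the same shares. In JMJD3 cKO TCM 2 of 7 tested rose and 2 fell. Colec12, a scavenger collectin, was among the 6 that fell with TCM and rose from 18.99 ± 0.110 to 155 ± 5.15 CPM in the TRAP1 knockout (log2 fold change 3.04, standard error 0.044, adjusted p = 1.8e-73). Cd72, an inhibitory receptor with an ITIM, fell in all 3 comparisons, by 0.84 with TCM, 0.33 in TRAP1 KO TCM and 0.48 in JMJD3 cKO TCM on the log2 scale.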

How the data were processed

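RNA was sequenced from 16 libraries, and the authors deposited a table of whole-number counts per Ensembl gene for each, used here as raw counts. Per the labels' protocols, rRNA was depleted with Ribo-Zero before TruSeq Stranded library construction. HISAT, StringTie, RSEM, Bowtie2 and mm10 are listed in the submitters' processing notes, with no version or role. The counting tool, annotation release, strand setting and batches were not stated there, so overlapping genes and close copies are uncertain. Of the identifiers, 37 without a GENCODE M21 symbol (GRCm38, as mm10) were left out, at most 0.0036% of a library, leaving 54495.

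Counts were tested in R (4.3.3) with edgeR (4.0.16), TMM scaling, filterByExpr (minimum 10), quasi-likelihood fits with the robust option and Benjamini-Hochberg adjustment over every gene tested. The 10 libraries of the wild-type set (WT naive, TRAP1 KO TCM and WT TCM) shared a fit (7 residual degrees of freedom), the JMJD3 line had its own (4), and contrasts across sets used all 16 libraries (11). The steps were tested on simulated data. Replicates differed by more than counting noise, so none was merged.

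Alternatives were DESeq2 (1.42.0), RLE size factors, other filters and sets of libraries, a replicate block, the longest transcript as length and leaving out each library. Members, lists and designs were chosen with earlier results of these data known. Genes given in full had a group mean of at least 10 CPM, or at least 1 CPM with a 2-fold call. The genes named from the pathway and marker lists were picked after their values were seen.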

Additional observations from a re-analysis of the deposited data

Results flagged for a closer look

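Among the 19 members given in full, the 4 libraries of TRAP1 KO TCM were searched for one that lay far from the others. Clec10a replicate 2 stood above the rest by 0.882 of the range of its group, and Klrk1 replicate 2, the only library of the group with a Klrk1 count, by 1.0. For continuous values chance gives such a gap in about 1 in 20 groups, and 2 of 19 had one. That rate does not hold for Klrk1, whose 2 counts in the group both fell in replicate 2, which fixes the gap at 1.0.

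The difference between the change in TRAP1 KO TCM and the change in JMJD3 cKO TCM passed edgeR's test for 14 members. On the log2 scale it was 3.42 for Mgl2, 2.64 for Clec4n, 1.67 for Pla2r1, 1.39 for Clec10a, 1.38 for Cd69, 1.28 for Clec4e, 0.99 for Clec16a and 0.51 for Clec4d. Smaller positive differences were found for Clec4a2 (0.29), Clec4a1 (0.23), Mrc1 (0.22) and Clec4a3 (0.16). Clec12a (-0.19) and Clec1b (-1.39) lay under 0. The knockouts were compared with different wild types, whose line, sex and library set cannot be told apart from the genotype contrast.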

How the results depend on the processing

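Of the 10 counts of called members, 9 stayed within 1.5 times of their value under every alternative that was run. The exception was the number of members whose difference between the genotype effects lay under 0, which was 2 and became 1 under DESeq2, 1 with no filter, 1 with a minimum of 50 counts and 1 with a replicate block, and 1 to 3 when single libraries were left out, with Clec1b as the call lost and Clec5a as the call gained. Of 1252 alternative values of single genes, 1197 kept direction and call, 35 lost the call, 9 gained one and 11 changed sign. No gene that changed sign had been called. In WT TCM against WT naive, leaving out single libraries gave -0.636 to 0.0623 for Clec4a4, -0.0923 to 0.0076 for Clec2d and -0.0583 to 0.0136 for Clec16a. For JMJD3 cKO TCM against JMJD3 WT TCM it gave -0.0165 to 0.0424 for Clec4a2, -0.0893 to 0.0038 for Clec2d and -0.0338 to 0.0011 for Clec12a, and having no filter gave 0.0069 for Clec12a. For the difference between the genotype effects it gave -0.1785 to 0.0163 for Cd302 and -1.9826 to 1.0846 for Klrk1, which had 3 counts in WT TCM and 2 in TRAP1 KO TCM. The cause of these changes was not tested. Same-numbered libraries of compared groups had correlations of -0.029 to 0.020 in their deviations from the group mean. Counting noise can hide a shared animal or culture, so these values do not settle whether replicate numbers pair libraries. The replicate block left the other 9 counts within 1.5 times. With the longest transcript as length, the level per kb of Clec12a and Clec4g became 1.71 times as high and that of Klrk1 2.2 times. Depth limits the low members, since 3 counts correspond to 0.129 to 0.208 CPM in a library.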
